A study of Homo sapiens with 3 samples.

Results

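EGR1, EGR2, EGR3, NR4A1, IER2, IER3, IER5, DUSP1, DUSP2 and DUSP5 are immediate early genes, which cells transcribe within minutes of a signal without new protein synthesis. These genes were chosen by name, by matching the Ensembl IDs of the count table, without their version, to GENCODE release 29 symbols, and 10 of 10 were found among the 15808 genes of the table. RNA was sequenced from OCI-Ly10 cells after 6 h of MZ1, with 3 replicate libraries forming a single group. OCI-Ly10 is an established line of human diffuse large B cell lymphoma, and MZ1 is a bifunctional compound that brings BET bromodomain proteins to the VHL ubiquitin ligase for degradation. The sources used here do not give the MZ1 dose, and untreated OCI-Ly10 cells were not analysed here, so the values are levels in treated cells and their spread, not effects of MZ1. Nothing in the labels says that the replicates came from separate cultures, so each p-value measures only the spread between these libraries, which may be technical.

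Growth factor and antigen receptor signals pass through RAS, RAF and MEK to the kinase ERK, which activates ETS-type partners of serum response factor (SRF) bound to a DNA element called the CArG box, while CREB-type factors bind cyclic AMP response elements (CRE). EGR proteins are zinc finger transcription factors made in this first wave, and dual specificity phosphatases (DUSP) made in the same wave remove phosphate from MAP kinases and so limit the signal. In B cells the wave follows antigen receptor engagement, and its transcripts decay quickly.

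Sequences upstream of the start were available from RefSeq (GRCh38.p14) for 7 of the 10 genes, in 10 windows, and the 250 bases before each start were searched on both strands. The windows of EGR1 and EGR2 are shown because they hold CArG boxes, and that of DUSP1 because it holds a full CRE, TGACGTCA. Through such elements this class of genes is known to be induced. The DUSP2 window is shown because DUSP2 is the most GC-rich transcript and the most variable gene of the group. Capitals mark CArG boxes and the short CRE core TGACG or its complement CGTCA.
EGR1, chr5:138465229-138465478, plus strand: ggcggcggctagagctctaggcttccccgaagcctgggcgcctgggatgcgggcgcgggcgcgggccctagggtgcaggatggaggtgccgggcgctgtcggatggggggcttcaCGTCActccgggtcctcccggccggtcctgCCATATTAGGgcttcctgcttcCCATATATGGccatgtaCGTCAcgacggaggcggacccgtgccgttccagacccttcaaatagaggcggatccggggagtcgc
EGR2, chr10:62816367-62816616, minus strand: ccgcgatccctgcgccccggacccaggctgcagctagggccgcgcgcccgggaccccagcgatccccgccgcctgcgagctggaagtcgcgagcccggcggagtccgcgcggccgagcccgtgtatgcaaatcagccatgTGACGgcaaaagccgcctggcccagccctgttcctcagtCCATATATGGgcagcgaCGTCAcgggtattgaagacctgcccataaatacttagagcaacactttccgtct
DUSP1, chr5:172771196-172771445, minus strand: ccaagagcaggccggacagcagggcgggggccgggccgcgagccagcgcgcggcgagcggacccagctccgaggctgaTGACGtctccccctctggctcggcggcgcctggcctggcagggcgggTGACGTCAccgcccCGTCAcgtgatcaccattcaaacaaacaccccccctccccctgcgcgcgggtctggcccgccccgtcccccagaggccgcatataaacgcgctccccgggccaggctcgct
DUSP2, chr2:96145441-96145690, minus strand: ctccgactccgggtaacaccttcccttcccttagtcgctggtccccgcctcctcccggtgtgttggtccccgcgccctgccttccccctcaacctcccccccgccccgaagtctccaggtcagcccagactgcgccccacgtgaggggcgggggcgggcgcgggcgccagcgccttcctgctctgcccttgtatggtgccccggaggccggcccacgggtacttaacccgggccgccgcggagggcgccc

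The EGR1 window held 2 CArG boxes, beginning 105 and 83 bases before the start, and 2 CRE cores, at 135 and 66 bases. The EGR2 window shown held 1 CArG box at 71 bases and 2 CRE cores at 110 and 54 bases, and the other windows of EGR2, which lie before alternative starts, held neither. The DUSP1 window held no CArG box but 4 CRE cores, at 172, 125, 122 and 111 bases, of which those at 125 and 122 overlap in 1 full CRE, TGACGTCA, and it was the only member window with TATAAA, 30 bases before the start. IER2 had a single CRE core at 140 bases. The windows of NR4A1, IER5 and DUSP2 held none of these letters, and no member window held the EGR binding site GCGTGGGCG. Over all 35116 windows of the same length, 1.16% held a CArG box, 21.2% TGACG, 1.65% TGACGTCA, 10.7% TATAAA and 0.72% GCGTGGGCG. A match is a description of letters and not evidence of binding in these cells.

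The libraries summed to 5474462, 1441246 and 1314812 counts in replicates 1, 2 and 3. Levels are given as CPM, the count scaled to the TMM-adjusted library size, where 1 count is worth 0.20, 0.629 and 0.767 CPM in replicates 1, 2 and 3. Antisense genes took 0.251% of the counts in replicate 1 against 2.04% and 2.09% in the others. All 3 libraries differed by GC content: in the richest of 8 GC bins, the median log2 deviation of a gene from its mean over the libraries was 0.55, -0.80 and 0.29 in replicates 1, 2 and 3. All 7 B cell markers examined reached 1 CPM in every library, led per kb of exon by the receptor chain gene CD79A with 437, 353 and 903 CPM. CD2, the 1 T and NK cell marker of 5 listed that was analysed here, had 1.40, 0 and 0 CPM. The 3 myeloid markers analysed summed to 33.8, 22.6 and 23.01 CPM, nearly all from the granule enzyme gene MPO, while 2 stromal and epithelial markers had 5.60, 1.89 and 2.30 CPM. The part of these marker counts in the results below was not tested.

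EGR1 was the most abundant of the 10 genes, and all 3 EGR genes studied were measured in every library. EGR1 (ENSG00000120738.7, chromosome 5, 138465490 to 138469315, plus strand, 2 exon blocks), the prototype zinc finger factor of the family, had 1006.7, 344 and 396 CPM in replicates 1, 2 and 3. Replicate 1 lay 2.92-fold above replicate 2 and 2.54-fold above replicate 3, while the latter pair was not separated by the test (adjusted p = 0.369). By CPM per kb of merged exons, the scale used to compare genes, EGR1 ranked 142, 249 and 267 among the 15668 genes with a GENCODE match. EGR2 (ENSG00000122877.12, chromosome 10, 62811996 to 62919900, minus strand), known for its role in limiting lymphocyte activation and in myelination, had 119, 31.4 and 23.01 CPM. Replicate 1 was again the high library, 3.79-fold above replicate 2 and 5.18-fold above replicate 3. EGR3 (ENSG00000179388.8), which is often induced with EGR2, was the steadiest of the 10 genes, with 49.4, 46.5 and 30.7 CPM from 247, 74 and 40 counts. Its order between replicates 1 and 2 turns with the scaling: by column totals, by the deposited log2 values and after GC centring (defined below), replicate 2 was the highest.

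NR4A1 (ENSG00000123358.18, chromosome 12, 52022832 to 52059507, plus strand), an orphan nuclear receptor used as a reporter of antigen receptor signalling, had 68.6, 7.54 and 38.4 CPM from 343, 12 and 50 counts. Replicate 2 was the low library here, and replicate 3 lay 5.09-fold above it. The family genes NR4A3 and NR4A2 had 22.8 ± 10.8 and 1.05 ± 0.455 CPM (SD, n = 3).

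The IER genes spanned a wide range. IER5 (ENSG00000162783.10, chromosome 1, 181088712 to 181092899, plus strand, 1 exon block), an adaptor of a protein phosphatase that acts on heat shock factor, had 265, 82.3 and 188 CPM. It was highest in replicate 1 and lowest in replicate 2, with replicate 3 2.28-fold above replicate 2. IER2 (ENSG00000160888.6, chromosome 19, 13150415 to 13154908, plus strand), a nuclear regulator of the same family, had 79.8, 23.3 and 26.1 CPM. Replicate 1 was the highest, and after GC centring its log2 values were 5.78, 5.37 and 4.45, with replicate 3 the lowest. Its exons overlap those of AC011446.2 on the opposite strand by 946 bases, and that gene had 0, 3 and 12 counts against 399, 37 and 34 for IER2. IER3 (ENSG00000137331.11, chromosome 6, 30743199 to 30744554, minus strand), a survival factor and NF-kB target, was close to the detection limit with 27, 1 and 3 counts. These equal 5.40 CPM (exact Poisson 95% interval 3.56 to 7.85), 0.629 (0.0159 to 3.50) and 2.30 CPM (0.475 to 6.73), which cover counting error only, and the interval of replicate 3 overlaps those of both other libraries.

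Among the member phosphatases, DUSP2 had the highest level in every library. DUSP2 (ENSG00000158050.4, chromosome 2, 96143166 to 96145440, minus strand, 4 exon blocks), a nuclear phosphatase of ERK and p38 known from activated lymphocytes, had 607, 54.1 and 155 CPM from 3034, 86 and 202 counts. This was the widest spread among members, 11.2-fold from replicate 2 to replicate 1, and the SD of its log2 values exceeded that of 97.2% of genes of at least 10 CPM. DUSP5 (ENSG00000138166.5, chromosome 10, 110497838 to 110511544, plus strand), a nuclear phosphatase specific for ERK, had 36.2, 14.5 and 23.01 CPM. DUSP1 (ENSG00000120129.5, chromosome 5, 172768090 to 172771195, minus strand), a broad phosphatase of p38, JNK and ERK, had 13, 0 and 1 counts. That is 2.60 CPM (exact Poisson 95% interval 1.38 to 4.44) in replicate 1 and 0.767 CPM (0.0194 to 4.27) in replicate 3, and the absence of counts in replicate 2 allows up to 1.89 CPM (the limit of 3 counts used for every zero). A difference in DUSP1 between libraries was not detectable at this depth.

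**Figure D1:**
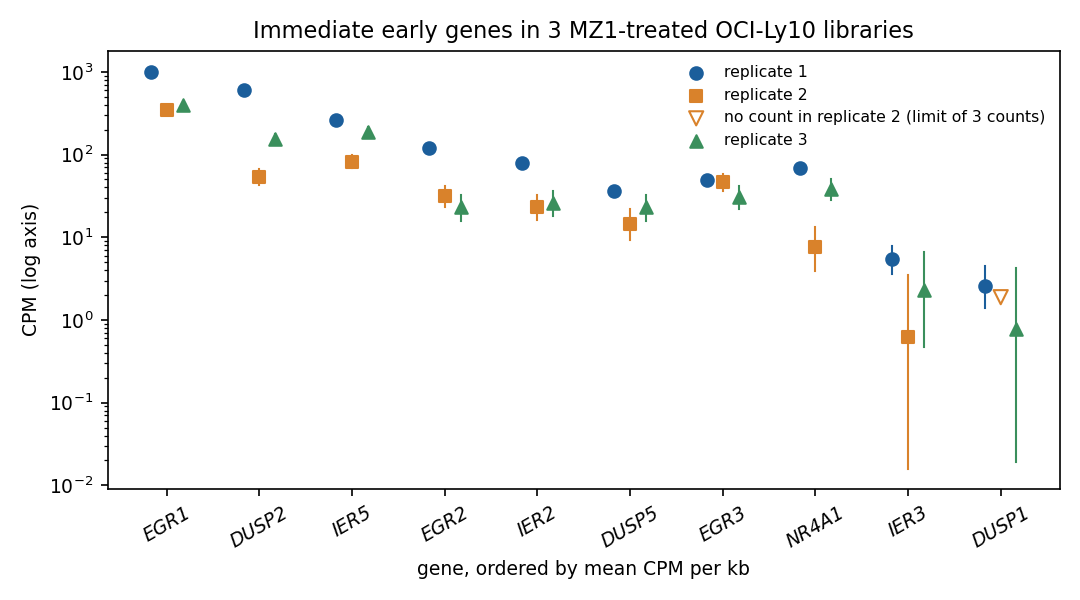
Level of each gene in CPM on a log axis, with 1 point per library, exact Poisson 95% intervals as lines (counting error only) and an open triangle at the limit of 3 counts where no count was found. By this TMM scaling replicate 1 holds the highest point of each gene, from 1006.7 CPM for EGR1 to 2.60 CPM for DUSP1, but for EGR3 replicate 2 is highest by column totals.

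Of the 10 genes, 8 reached 1 CPM in every library, beside 68% of all genes in the table, and the exceptions were IER3 and DUSP1. The order of the members per kb of exon ran from EGR1 at 186 ± 117 CPM per kb (SD, n = 3) through DUSP2 at 141 ± 152, IER5 at 42.6 ± 21.9, EGR2 at 15.7 ± 14.4, IER2 at 14.0 ± 10.4, DUSP5 at 9.39 ± 4.19, EGR3 at 8.69 ± 2.07, NR4A1 at 5.23 ± 4.18 and IER3 at 2.05 ± 1.78 to DUSP1 at 0.556 ± 0.661. Neighbours were compared by their log2 ratio per kb within each library, with 0.5 CPM added to both genes. EGR1 and DUSP2 did not differ beyond the spread of that ratio (0.88 ± 0.99), being nearly level in replicate 1 (0.03) and apart in replicate 2 (1.96). DUSP2 lay above IER5 (1.22 ± 0.96) and IER5 above EGR2 (1.66 ± 1.01) in 3 of 3 libraries. EGR2, IER2, DUSP5, EGR3 and NR4A1 formed a run whose neighbours were not separated beyond their spread, while NR4A1 lay above IER3 (0.96 ± 0.50) in 3 of 3 libraries. IER3 lay above DUSP1 (1.66 ± 0.13) in 3 of 3 libraries, but in replicates 2 and 3 this pair rests on 1 against 0 and 3 against 1 counts. Its ratio and small SD there depend on the 0.5 CPM added, so the pair is poorly resolved. The ratio of NR4A1 to IER3 rests on the same 1 and 3 IER3 counts.

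Within families the leading gene was the same in every library. On the log2 scale per kb, EGR1 exceeded EGR2 by 3.76 ± 0.51 and EGR3 by 4.26 ± 0.73, and it made up 88.3%, 85.8% and 90.9% of the summed EGR1, EGR2 and EGR3 level. EGR2 exceeded EGR3 in replicate 1 only (1.66, against -0.16 and -0.01), with a mean of 0.50 ± 1.01. IER5 exceeded IER2 by 1.67 ± 0.61 and IER3 by 4.29 ± 0.38, and IER2 exceeded IER3 by 2.62 ± 0.58. The 2 ratios to IER3 rest on 1 and 3 IER3 counts in replicates 2 and 3. With 1 CPM added in place of 0.5 their means were 4.00 and 2.35. DUSP2 exceeded DUSP5 by 3.32 ± 1.10. Against DUSP1, DUSP2 was 244-fold higher in replicate 1 and at least 29.96-fold higher in replicate 2, where DUSP1 had no count and its limit of 3 counts was used, and DUSP5 was 10.7-fold and at least 5.92-fold higher. In replicate 3 these ratios rest on 1 DUSP1 count. Of the 9 pairs, 8 had the same sign in 3 of 3 libraries. The exact two-sided sign-flip permutation p was 0.25 for these (0.281 adjusted over the 9 pairs), the smallest that 3 libraries allow, and 1 for EGR2 and EGR3, so no pair could pass 0.05.

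**Figure D2:**
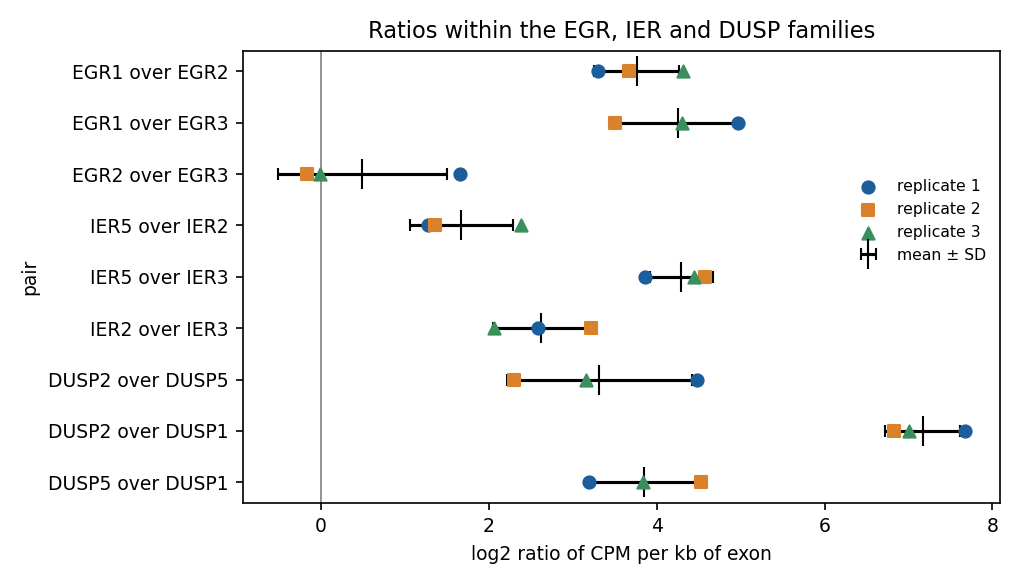
Log2 ratio of CPM per kb of exon for the 9 pairs within the EGR, IER and DUSP families, with 1 point per library and the mean ± SD (n = 3). All pairs lie above 0 in each library except EGR2 over EGR3, which is at 1.66, -0.16 and -0.01. Where DUSP1 had no count, in replicate 2, the plotted ratio depends on the 0.5 CPM added.

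The counts of each gene were tested for equal expression over the 3 libraries (Poisson chi-square test, Benjamini-Hochberg adjustment over all genes that averaged 10 counts or more). All 9 members tested passed at 0.05, beside 67.2% of the 10016 genes tested, so this count is a property most genes share. All 9 were highest in replicate 1 by TMM scaling, EGR3 excepted under the scalings named above. For some of the members this was already known from earlier results of these data, so it is a description only. Of all genes tested, 43.8% were highest in replicate 1 and 32.1% were so and passed the test. DUSP1, with a mean of 4.67 counts, was under the minimum. The adjusted p was 6.12e-246 for DUSP2, 5.97e-210 for EGR1, 2.19e-41 for IER5, 1.34e-38 for EGR2, 3.19e-20 for IER2 and 6.17e-20 for NR4A1. DUSP5 (5.57e-05), EGR3 (0.0299) and IER3 (0.0284) passed by less. IER3 did not pass by column totals (adjusted p = 0.0604) or without replicate 2 (0.240), nor EGR3 without replicate 3 (0.719). A further test allowed for the spread typical of these libraries (edgeR likelihood ratio test with a common dispersion, a biological coefficient of variation of 38.8%). By it 1 of 9 members passed, DUSP2 with an adjusted p of 0.00595, beside 4.05% of all genes tested. This edgeR test used TMM library sizes and was not run with GC-centred ones.

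Without replicate 1, 4 of 8 members tested differed between replicates 2 and 3, beside a background of 33.8%. These were DUSP2 (2.87-fold higher in replicate 3, adjusted p = 4.04e-14), IER5 (1.50e-11), NR4A1 (1.04e-06) and EGR3 (0.0417), the last being lower in replicate 3. EGR1, EGR2, IER2 and DUSP5 did not pass, with adjusted p-values from 0.205 to 0.897. After GC centring (below), the log2 difference of replicate 3 from replicate 2 was 0.42 in place of 1.51 for DUSP2, 1.18 in place of 2.27 for NR4A1, 1.16 in place of 1.19 for IER5 and -0.79 in place of -0.59 for EGR3. Among the members that did not pass, it was -0.93 in place of 0.16 for IER2, -0.36 in place of 0.20 for EGR1, -0.64 in place of -0.44 for EGR2 and 0.09 in place of 0.65 for DUSP5, so the order of replicates 2 and 3 turned for IER2 and EGR1.

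The difference of replicate 1 from the mean of replicates 2 and 3, as log2(CPM + 0.5), was 2.72 for DUSP2, 2.13 for EGR2, 1.97 for NR4A1, 1.73 for IER3, 1.68 for IER2, 1.45 for EGR1, 1.09 for IER5, 0.97 for DUSP5 and 0.38 for EGR3. Replicates 2 and 3 gave unequal differences for several members. With replicate 2 left out the difference was 0.83 for NR4A1, 0.50 for IER5, 1.07 for IER3, 0.64 for DUSP5 and 0.68 for EGR3, and with replicate 3 left out it was 3.103 for NR4A1, 1.68 for IER5 and 0.086 for EGR3. The median of these 9 was 1.68, against 0.17 over all genes tested, and 7 of 9 exceeded 1, against 20.3% of all genes tested. Earlier results of these data already showed replicate 1 highest for a list holding some members, so these contrasts are a description only. The members fall in the upper 4 of 8 GC bins of expressed genes: their longest transcripts range from 49.8% GC for IER5 to 63.9% for DUSP2, and in the richest bin of all genes tested (median 61.2% GC) the median difference was 0.91. After the median of each GC bin was taken off in each library (GC centring), the differences were 1.91 for DUSP2, 1.88 for EGR2, 1.16 for NR4A1, 0.99 for IER5, 0.92 for IER3, 0.91 for EGR1, 0.87 for IER2, 0.43 for DUSP5 and 0.13 for EGR3. Their median was then 0.92, against 0.04 over all genes tested. With library sizes centred in the same way, 7 of 9 members passed the chi-square test, beside 61.0% of all genes, and DUSP5 (adjusted p = 0.188) and IER3 (0.321) did not. After centring, replicate 1 was the highest library for 8 of 9 tested members and for 38.8% of all genes tested.

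**Figure D3:**
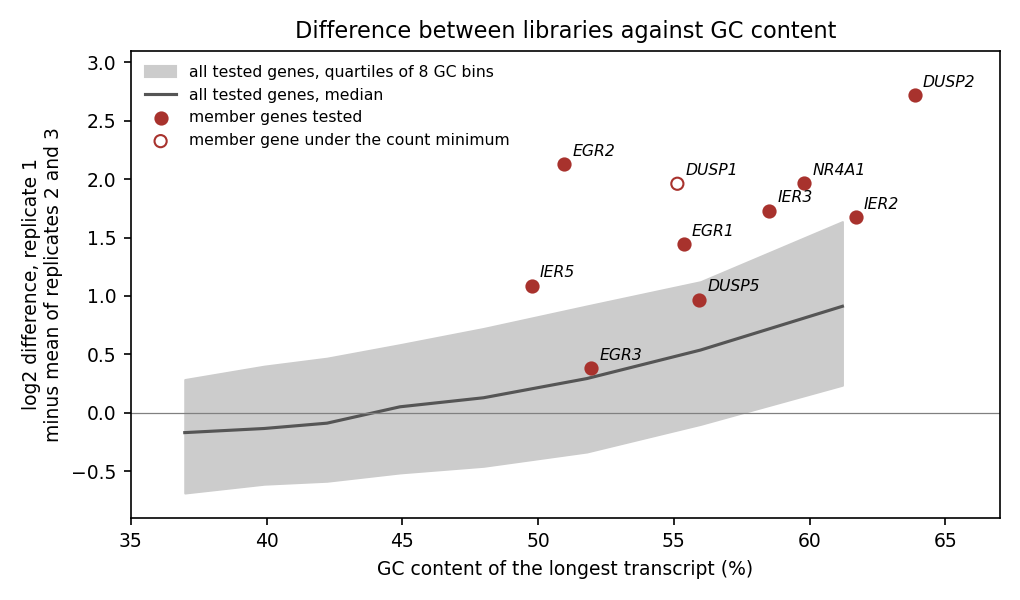
Log2 difference of replicate 1 from the mean of replicates 2 and 3 (y axis) against the GC content of the longest transcript in percent (x axis). The band and line are the quartiles and median of all genes tested in 8 GC bins, and the points are the members, with DUSP1, under the count minimum, drawn open. DUSP2 and EGR2 lie highest, at 2.72 and 2.13, and EGR3 lies near the median line at 0.38.

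Genes around the members were examined in 8 lists, where a gene that passed the chi-square test is said to vary. Of all 10016 genes tested, 67.2% varied, and 32.1% varied and were highest in replicate 1. The list counts below stand beside these shares. Of the EGR corepressor and family genes, 2 of 3 tested varied, both highest in replicate 1. NAB2, an EGR corepressor that is itself an EGR target, had 57.2, 25.1 and 29.2 CPM, and NR4A3 was the other. After GC centring NAB2 was highest in replicate 2 (log2 values 5.30, 5.48 and 4.60), and the median difference of the list was 0.32 in place of 0.99. NAB1, the related corepressor, had 35.99, 37.1 and 27.6 CPM and did not pass (adjusted p = 0.358). Over the 56 member and list genes of at least 10 CPM, the genes whose centred log2 values lay nearest to those of EGR1 over the 3 libraries were IER2 (Euclidean distance 0.19), NAB2 (0.31) and the RNA-binding protein gene ELAVL1 (0.42), which with 3 libraries is a description only.

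The other MAP kinase phosphatases were low, except DUSP16. Of the 6 in the table, DUSP16, a JNK and p38 phosphatase, led with 47.8, 52.8 and 32.2 CPM, followed by DUSP10 at 3.81 ± 1.94 CPM. DUSP6, the cytoplasmic ERK phosphatase commonly read as an ERK output, had 1, 0 and 0 counts, and DUSP4 had none in any library, which allows up to 0.60, 1.89 and 2.30 CPM (3 counts). DUSP7 and DUSP8 had means under 1 CPM, so DUSP2, DUSP16 and DUSP5 were the MAP kinase phosphatase transcripts measured above 10 CPM. NR4A3, NAB1, DUSP6, DUSP7, DUSP8 and DUSP10 were singled out after their values were seen. The Sprouty and Spred inhibitors of RAS signalling were likewise low: SPRED2 led with 16.2 ± 1.52 CPM, SPRY4 had no count, and 0 of 2 tested genes varied.

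The kinases that the phosphatases act on were mostly measured. All 14 genes of the ERK cascade reached 1 CPM in every library, led per kb by the GTPase gene NRAS at 108 ± 11.7 CPM, with the ERK substrate kinase gene RPS6KA2 lowest at 2.73 ± 2.32 CPM. Of these 14 genes, 12 varied, 7 of them highest in replicate 1 and 5 in another library. Of 12 JNK, p38 and ERK5 kinases, 9 reached 1 CPM in every library. MAPK7, MAPK11 and MAP2K6 did not, with 9, 1 and 1 counts, 89, 1 and 3 counts, and 4, 7 and 0 counts, the first pair being singled out after their values were seen. Of the list, 10 were tested and 5 varied, 3 of them highest in replicate 1, and MAP2K3 led per kb at 54.0 ± 24.8 CPM, while MAP2K6 was lowest per kb.

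The activators of immediate early transcription were all measured, and SRF led them per kb of exon with 80.2, 70.4 and 82.1 CPM. SRF did not pass the test (adjusted p = 0.473) but did with GC-centred library sizes (6.21e-13). Of the 8 SRF, ETS and CREB activators tested, 5 varied and 0 of these were highest in replicate 1, and the median difference of the list was -0.27 on the log2 scale (-0.71 after GC centring). MRTFB, an SRF coactivator, was the lowest per kb at 8.52 ± 4.60 CPM. Among 10 genes of AU-rich mRNA turnover, which shortens the life of immediate early transcripts, 8 varied, 4 of them highest in replicate 1, with a median difference of -0.03. The splicing and decay factor gene KHSRP led with 380, 525 and 730 CPM and CNOT6, a deadenylase subunit gene, was the lowest at 21.9 ± 6.61 CPM.

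Among the other immediate early genes, 9 of 11 tested varied, 6 of them highest in replicate 1, and the median difference was 0.86 (0.43 after GC centring). PPP1R15A, a phosphatase subunit of the stress response, led the list and ran the other way, with 225, 446 and 447 CPM. KLF2 was the lowest, with 2, 0 and 0 counts. Whether the members differ from these lists was not tested.

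**Figure D4:**
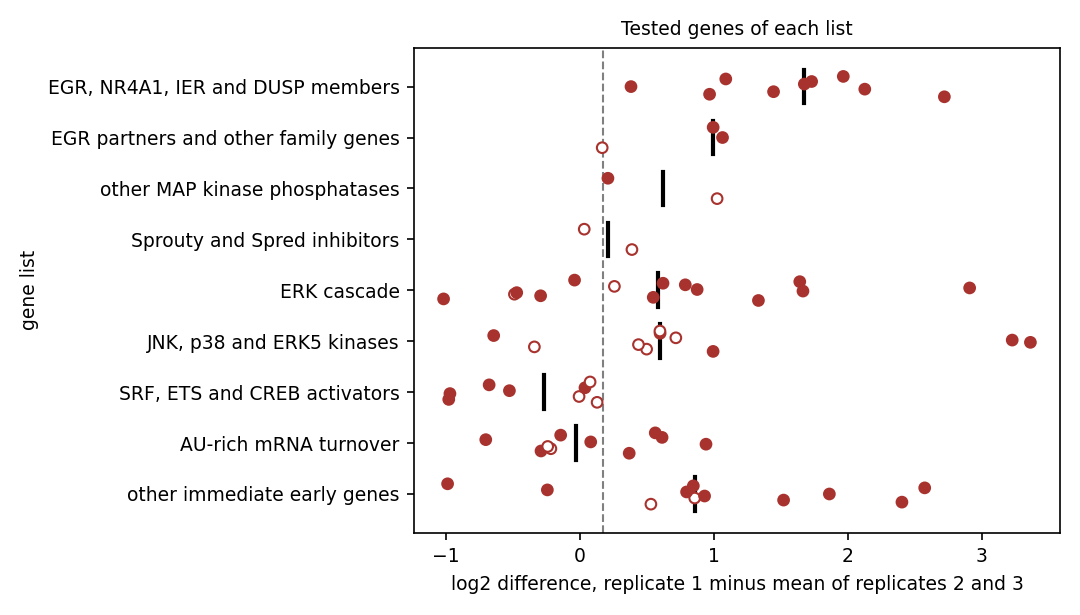
Log2 difference of replicate 1 from the mean of replicates 2 and 3 for the tested genes of each list, filled where the chi-square test passed at 0.05 and open where it did not. Black bars are list medians, 1.68 for the members and 0.86 for the other immediate early genes, and the dashed line is the median of all genes tested, 0.17.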

How the data were processed

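The deposited raw counts per gene, made by the authors, were analysed for 3 libraries of MZ1-treated OCI-Ly10 cells (6 h). The submitters' processing notes name STAR, edgeR and hg38. The sources used here do not say how reads were counted, whether strand was used or which annotation was taken. The deposited log2 CPM table, computed by the authors, served as an alternative only.

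Counts were scaled with TMM factors (0.914, 1.10 and 0.991; edgeR 4.0.16, R 4.3.3). Names, positions and exon lengths (merged over transcripts) were taken from GENCODE release 29, matched for 15668 of 15808 IDs; unmatched IDs held at most 0.0972% of a library. GC centring used 8 bins of genes of at least 10 CPM. The chi-square test was tried on simulated Poisson counts. These hold counting error only, so the trial says nothing about false calls where libraries spread more than that. Alternatives were DESeq2 1.42.0 size factors, column totals, other pseudocounts and filters, an edgeR likelihood ratio test, GC centring and leaving out each library. The GC-centred test and the restriction to members without opposite-strand overlap were added after seeing the data.

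All members are named, as are the highest and lowest gene per kb of each list, the 3 genes nearest to EGR1 and measured opposite-strand partners. The members and lists were chosen with earlier results of these data known. EGR4, IER5L, DUSP9, SPRY2, SPRY3, FOSL1, KLF4, CD3D, CD3E, CD7, NKG7, CD14, COL1A2, EPCAM and KRT18 were listed but not analysed here. EGR3, NR4A1, IER2 and IER3 each share exonic bases with an opposite-strand gene, and reads of such a pair cannot be told apart while the strand setting is unknown.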

Additional observations from a re-analysis of the deposited data

How the results depend on the processing

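The number of members reaching 1 CPM in every library, 8 of 10, stayed between 8 and 9 under all alternatives run, and the number highest in replicate 1, 10 of 10, stayed between 9 and 10, with EGR3 the exception by column totals, by deposited log2 values and after GC centring. Of the 9 members that varied by the chi-square test, 4 to 8 did when 1 library was left out (4 without replicate 1, of 8 tested), 1 did with the common dispersion of edgeR, and 5 of 5 did among members with no exon overlap on the opposite strand, a set that holds fewer genes. Other scalings, filters and GC centring gave 7 to 9. The share of all genes tested moved as well. It was 33.8%, 45.2% and 56.2% without replicates 1, 2 and 3, and 4.05% with the common dispersion of edgeR. Under the other settings it lay between 51.0% (no filter on the mean count) and 81.1% (mean count of at least 50). EGR2 over EGR3 was the 1 pair that reversed: its mean log2 ratio was 0.50, and between -0.087 (without replicate 1) and 0.82 with a library left out. The differences of replicate 1 from the other libraries kept their direction under the alternatives run, but their size did not always hold. Leaving out replicate 2 or 3 moved those of NR4A1, IER5, IER3, DUSP5, EGR3 and the low DUSP1 by over 1.5 times. GC centring lowered those of EGR1, NR4A1, IER2, IER3, DUSP5 and EGR3 by over 1.5 times, and column totals lowered that of EGR3 from 0.38 to 0.19. No paired analysis was possible because the labels give 1 group. Replicates 2 and 3 limit the depth, as 3 counts equal 1.89 and 2.30 CPM there, so IER3 and DUSP1 are poorly resolved.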
